A study of Mus musculus with 2 samples.

Results

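The gene set described here holds 42 interferon-stimulated genes, listed by symbol, of which 41 have a row among the 32285 genes of the count matrix. Mx1 was not analysed here. The cells were live CD45.2+ YFP+ cells sorted from the lungs of Zbtb46-Cre x Rosa26-YFP mice, in which a Cre recombinase driven from the locus of Zbtb46, a transcription factor of conventional dendritic cells, switches on a yellow fluorescent protein that the cell and its progeny keep. Neonatal mice were 7 days old and adult mice 8 weeks old, with the same transgenes and no treatment named at either age. Each age had 2 pools of at least 5 mice, marked with separate hashtags and joined before droplet capture, so age and capture cannot be told apart. Xist stood at 753, 650, 0.222 and 0.122 UMIs per 1000000 UMIs (CPM) in neonatal pool 1, neonatal pool 2, adult pool 1 and adult pool 2, and the Y-linked gene Ddx3y at 0.541, 11.8, 72.2 and 80.1 in the same order, so age and sex of the pooled mice cannot be told apart either.

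Interferons are secreted proteins, and cells release those of type I and type III on sensing viral or other foreign nucleic acid. Type I and type III interferons bind their receptors and activate a complex that holds STAT2 and IRF9 and binds interferon-stimulated response elements in gene promoters, whereas type II interferon acts largely through gamma-activated sites. The induced genes block viral entry, translation and replication, sense nucleic acid, and feed back on the pathway, and many are also kept at a low level without infection. Dendritic cells and monocytes of the lung both make and answer these signals.

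The promoters of 34 of the 42 members had a matching window, 250 bases before to 50 bases after the transcription start, in RefSeq sequence of build GRCm38.p6. The letters GAAANNGAA, the core of the response element, stood on either strand in 21 of the 34 members, or 61.8%, against 9.76% of 27025 genes with such a window. The letters TTCNNNGAA of the gamma-activated site stood in 7 of the 34, or 20.6%, against 9.55% of genes. Among those 7, the match in Bst2 and in Ifitm3 overlapped a response element core. Windows of 4 members are shown because the results below turn on them and because they differ in these letters. Capitals mark the matches, each line runs 5' to 3' along the gene's strand, and positions count from the start site. Isg15 (chr4:156200769-156201068, minus strand) had 3 overlapping response element cores beginning at -78, -72 and -66. Ifit1 (chr19:34640639-34640938, plus strand) had 3, beginning at -109, -103 and -84, read on the other strand. Irf1 (chr11:53769764-53770063, plus strand, the first of its 2 windows) had no such core and 1 gamma-activated site at -90. Epsti1 (chr14:77903989-77904288, plus strand) had neither. A match describes these letters only.
Isg15: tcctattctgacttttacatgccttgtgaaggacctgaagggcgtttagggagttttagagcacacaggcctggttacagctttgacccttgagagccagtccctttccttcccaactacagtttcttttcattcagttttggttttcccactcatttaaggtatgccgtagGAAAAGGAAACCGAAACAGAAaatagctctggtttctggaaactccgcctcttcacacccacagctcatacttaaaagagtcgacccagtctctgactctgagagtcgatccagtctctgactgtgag
Ifit1: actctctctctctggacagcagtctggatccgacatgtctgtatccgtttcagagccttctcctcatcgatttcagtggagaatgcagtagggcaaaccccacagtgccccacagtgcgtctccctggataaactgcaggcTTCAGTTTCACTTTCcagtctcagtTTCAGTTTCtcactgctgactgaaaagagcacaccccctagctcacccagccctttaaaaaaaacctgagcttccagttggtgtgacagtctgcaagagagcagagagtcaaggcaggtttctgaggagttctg
Irf1: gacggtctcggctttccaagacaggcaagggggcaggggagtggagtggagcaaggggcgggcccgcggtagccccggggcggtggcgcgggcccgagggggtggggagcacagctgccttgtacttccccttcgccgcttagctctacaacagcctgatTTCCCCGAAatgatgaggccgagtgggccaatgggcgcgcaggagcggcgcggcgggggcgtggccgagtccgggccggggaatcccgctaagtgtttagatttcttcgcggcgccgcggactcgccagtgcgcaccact
Epsti1: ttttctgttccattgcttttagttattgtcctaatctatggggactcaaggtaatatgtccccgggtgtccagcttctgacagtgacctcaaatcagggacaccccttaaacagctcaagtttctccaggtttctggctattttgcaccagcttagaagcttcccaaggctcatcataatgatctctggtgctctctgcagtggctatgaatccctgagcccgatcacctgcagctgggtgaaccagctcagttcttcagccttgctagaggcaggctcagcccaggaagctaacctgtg

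After filtering, 4405 and 4436 cells of neonatal pools 1 and 2 and 2026 and 1854 cells of adult pools 1 and 2 were kept, from totals of 20346024, 19549992, 8993471 and 8172362 unique molecular identifiers (UMIs). Clustering without the members or the wider pathway list gave 15 classes, named from marker genes as conventional dendritic cell 1-like (cDC1), cDC2-like, mature DC-like, classical and nonclassical monocyte-like, neutrophil-like, NK cell-like, T cell-like and so on, although the labels give dendritic cells as the sorted cell type. Every marker of the class's own list had UMIs in each of the 9 classes tested, those with 20 or more cells in every pool, which alone does not secure a name. The cDC2 cluster had 7 of its 13 markers over 2-fold above other cells, and C1qa, C1qb and C1qc were among its leading genes. Ages lay in different clusters of the same class: nonclassical monocytes in clusters 0 and 2 for neonates and 9 for adults, neutrophils in 7 and 14 against 3, classical monocytes in 5 against 12, cDC1 in 1 against 10, and mature DC mostly in 6 against 11. Between ages, 14 barcodes were shared, and 0 within an age.

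The members made up a larger share of all UMIs in the adult pools of monocytes, neutrophils, cDC1 and cDC2. Their share was larger in the neonatal pools of mature DC, NK cells, T cells and basophil or mast cells. Per 10000 UMIs, the members in classical monocytes summed to 92.6 and 103 in the neonatal and 141 and 137 in the adult pools. In neutrophils the sums were 38.8 and 42.3 against 74 and 84.3. In mature DC they were 56.8 and 56.4 against 26.2 and 27.3. The pools of the ages did not overlap in any of these 3 classes. Nonclassical monocytes had 70.1 and 74.3 against 88.3 and 82.7, cDC2 20.6 and 22.7 against 39.8 and 38, and cDC1 13.9 and 14.3 against 19.7 and 19.7. Among lymphoid cells the sums were 29.2 and 29.7 against 24.3 and 22.6 in NK cells and 33.4 and 38.7 against 25.4 and 28.4 in T cells. Classical monocytes were thus highest and cDC1 lowest of the 9 classes in both ages, while NK cells, T cells and basophil or mast cells lay between 22 and 38.7 over all pools. These sums are raw shares of UMIs with no test.

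A few genes carried a large share of these sums. Ifitm3, a membrane protein that blocks the fusion of entering viruses, gave 37.7% of the members' UMIs in neonatal and 40.3% in adult classical monocytes, and Ifitm2, its close relative, gave 33.9% and 43.3% in neutrophils. Epsti1, an interferon-induced gene of epithelial and immune cells, gave 65% in neonatal and 35.8% in adult mature DC. Without Ifitm2, Ifitm3 and Bst2, the summed difference between ages in nonclassical monocytes went from -0.24 to 0.07 on the log2 scale of neonatal over adult, with overlapping pools, in basophil or mast cells from 0.25 to -0.64, and in cDC2 from -0.85 to -0.23. In classical monocytes it went only from -0.51 to -0.48 and in neutrophils from -0.96 to -0.83. Without Epsti1 the mature DC difference went from 1.08 to 0.21.

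**Figure D1:**
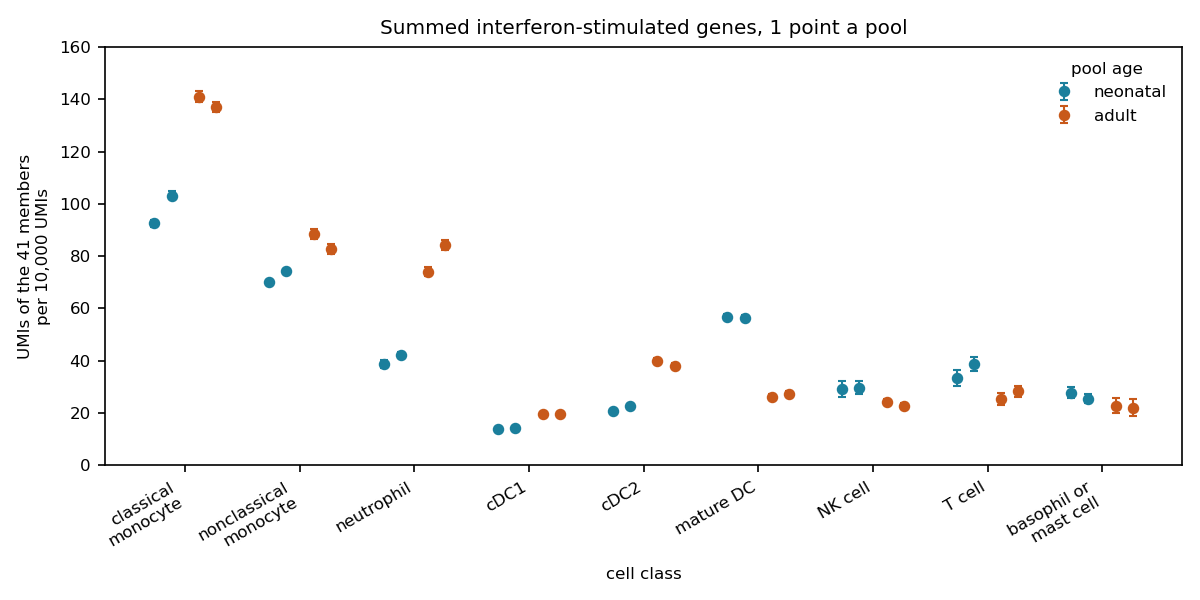
UMIs of the 41 members per 10000 UMIs (vertical axis, linear from 0) in each of the 9 tested classes (horizontal axis), 1 point a pool, with bars for the exact 95% Poisson interval, which covers counting error only. Adult points lie above neonatal ones in classical monocytes (141 and 137 against 92.6 and 103) and neutrophils, and below them in mature DC (26.2 and 27.3 against 56.8 and 56.4).

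Gene by gene, the age effect was tested in each class on UMIs summed per pool with edgeR's quasi-likelihood test, over all genes with enough UMIs, and "higher" or "lower" is used below for an adjusted p under 0.05 (Benjamini-Hochberg over all genes of the class). Fold changes are log2 of neonatal over adult on the TMM scale, with standard error, n = 2 pools an age. Pool values are CPM within the class, in the order neonatal 1, neonatal 2, adult 1, adult 2. CPM are not divided by gene length and were not compared between genes. Per the labels each pool was prepared independently, and the pools of an age share a capture, so the p-values measure the spread between these pools.

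In classical monocytes 40 of the 41 members had enough UMIs to test, and 31 were higher in the adult pools against 10.1% of all genes tested, whereas none was higher in the neonatal pools against 5.86%. The members' median change was -0.74, against a median near 0 over all genes. In neutrophils 19 of 31 tested members were higher in adults (15.9% of genes) and 1, Ifi204, in neonates (16.3%). Ifi204 moved by 0.47 ± 0.18 (adjusted p = 0.0437), and its call was lost without neonatal pool 2 and without adult pool 2. In cDC1 19 of 31 were higher in adults (14.4% of genes) and 1, Epsti1, in neonates (11.3%). The neonatal count in cDC1 was 0 without neonatal pool 1 and 2 without neonatal pool 2. In cDC2 13 of 33 were higher in adults (9.06% of genes) and 2, Gbp7 and Slfn2, in neonates (5.63%). The neonatal share in cDC2 lay near that of all genes. Without neonatal pool 1 the adult count in cDC2 was 7, and without neonatal pool 2 the neonatal count was 0. The median changes were -1.03 in neutrophils, -0.57 in cDC1 and -0.68 in cDC2.

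The remaining classes were more mixed. In nonclassical monocytes 10 of 37 tested members were higher in adults (9.81% of genes) and 5 in neonates (9.22%), with a median change of -0.13. Leaving out neonatal pool 1 or adult pool 1 brought the adult count there to 5 or 4, and leaving out adult pool 2 brought the neonatal count to 2. In mature DC 9 of 30 were higher in adults (15.3%) and 4 in neonates (14.1%), with a median of -0.34. The neonatal share there lay near that of all genes. The adult count in mature DC was 3 without either neonatal pool and 5 without adult pool 1. In NK cells 4 of 27 were higher in neonates (4.9%) and 1, Samd9l, in adults (4.32%). Without either neonatal pool those counts were 2 and 0. The NK cell marker list summed to 12200, 12600, 32400 and 31200 CPM in these cells, and its part in the members' differences was not tested. In T cells 2 of 15, Ifi27l2a and Igtp, were higher in neonates (0.455%) and none in adults (1.74%), and the neonatal count was 1 without either neonatal pool. Both T cell calls were lost with the pool number as a block (adjusted p = 0.0519 for Ifi27l2a and 0.102 for Igtp). After thinning to 1500 UMIs, Ifi27l2a had an adjusted p of 0.0636 and Igtp was no longer tested. In basophil or mast cells, with 6 members tested, 1 was higher in neonates (3.48%) and 1 in adults (4.71%); the neonatal count was 2 without neonatal pool 2 or adult pool 1. Over the 9 classes 38 members passed the test in 1 class or more, 25 of them only as higher in adults, 13 in both directions in different classes and 0 only as higher in neonates. Irf1 and Oasl1 passed as higher in neonates only in mature DC, and Epsti1 only in cDC1 and mature DC. All of these had the opposite sign within the 1 cluster of the class that was tested, as given below. In cluster 6 of mature DC, with 6 and 9 adult cells and no test, Irf1 and Oasl1 kept the neonatal direction. Ifi27l2a and Igtp did so only in T cells, where the block removed both calls. Ifit3, Dhx58 and Ifi44 passed in none, and Ifi44 had too few UMIs to be tested in any class.

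**Figure D2:**
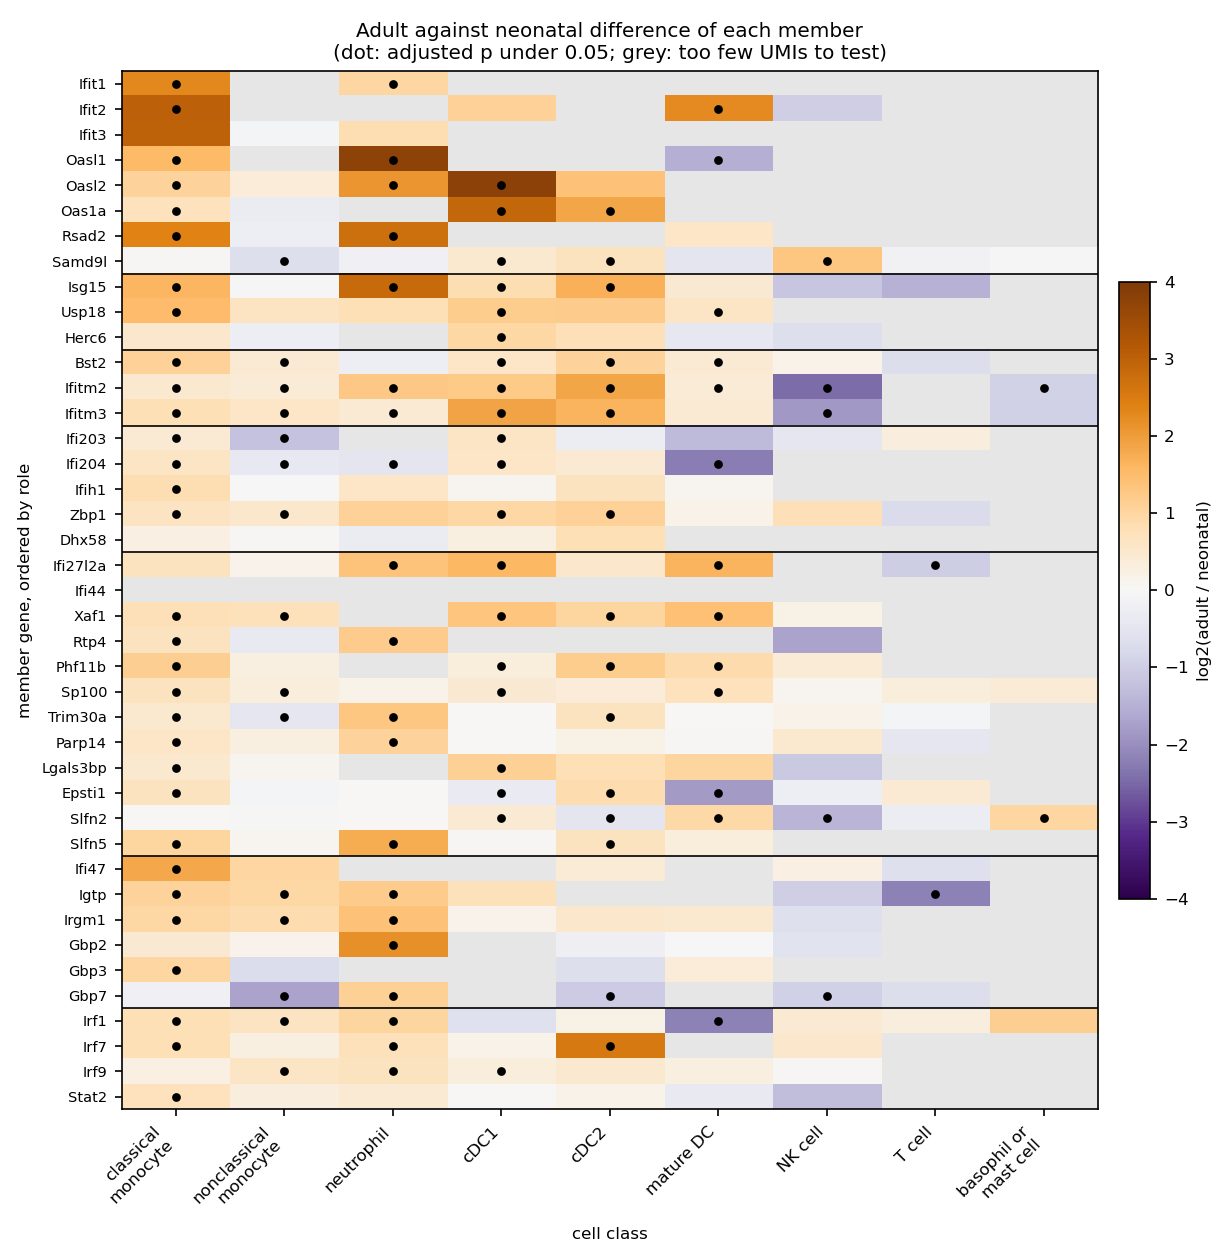
Difference between ages for each of the 41 members (rows, ordered by role) in the 9 tested classes (columns), as log2 of adult over neonatal, with orange for higher in adult and purple for higher in neonatal pools; dots mark an adjusted p under 0.05 and grey cells had too few UMIs to test. The classical monocyte column holds 31 dots, all orange, and the nonclassical monocyte column holds 10 orange and 5 purple ones.

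The transcription factors of the response came first. Irf1, a factor induced strongly by type II interferon, was at 66.9, 72.7, 111 and 102 CPM in classical monocytes (-0.80 ± 0.14, adjusted p = 2.3e-05), at 104, 85.6, 139 and 133 in nonclassical monocytes (-0.64 ± 0.12) and at 117, 162, 302 and 297 in neutrophils (-1.03 ± 0.13, adjusted p = 4.8e-09). Every adult pool was above every neonatal pool in these 3 classes. Irf7, the factor that amplifies type I interferon output, was at 86.4, 114, 148 and 158 in classical monocytes (-0.80 ± 0.13) and at 4.07, 2.45, 25.8 and 10.3 in cDC2 (-2.55 ± 0.49, adjusted p = 5.5e-04), where the neonatal pools had 10 and 4 UMIs. Irf9, the DNA-binding partner of STAT2, was higher in adult nonclassical monocytes (50.2, 46.3, 73.8 and 62.6), neutrophils and cDC1, and in classical monocytes its pools overlapped at 80, 83.6, 80.5 and 87. Stat2 itself was higher in adults in classical monocytes alone of the 7 classes that tested it, at 36.3, 41.2, 58 and 53.4 CPM.

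The nucleic acid sensors divided the 2 monocyte classes. Ifi203 and Ifi204 belong to the PYHIN family of DNA-binding proteins, whose close copies may share reads, and the annotation overlaps Ifi203 with Mndal on the same strand. Ifi203 was at 118, 106, 52.4 and 38.2 CPM in nonclassical monocytes, higher in the neonatal pools (1.19 ± 0.15, adjusted p = 1.9e-10), but at 240, 234, 271 and 290 in classical monocytes (-0.43 ± 0.09) and 140, 159, 218 and 226 in cDC1 (-0.61 ± 0.08), higher in the adult pools. Ifi204 had the same directions in both monocyte classes, with 221, 228, 177 and 140 in nonclassical (0.39 ± 0.10) and 244, 269, 342 and 342 in classical monocytes (-0.60 ± 0.08). Zbp1, a sensor of Z-form nucleic acid, was higher in adults in both monocyte classes, cDC1 and cDC2, as in classical monocytes at 138, 154, 207 and 189. The RNA sensor gene Ifih1, which encodes MDA5, was higher in adult classical monocytes (37.4, 36.3, 61.4 and 55.1), and Dhx58, which encodes its regulator LGP2, passed in no class.

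The genes of the ISG15 system differed by age in some classes and not in others. Isg15 is a ubiquitin-like protein joined to other proteins after interferon, and Usp18 removes it and damps receptor signalling. In neutrophils Isg15 was at 43.3, 62, 352 and 440 CPM (-2.83 ± 0.15, adjusted p = 3.6e-20) and in classical monocytes at 79, 98.7, 233 and 242 (-1.61 ± 0.12, adjusted p = 7.8e-14). Both adult pools lay far above both neonatal pools. In cDC2 it was at 18.3, 19.6, 60.9 and 50.5 (-1.71 ± 0.22) and in cDC1 at 5.63, 10.7, 14.7 and 13 (-0.83 ± 0.29, adjusted p = 0.0291). In nonclassical monocytes, with all clusters joined, the pools overlapped at 32.1, 38.5, 34.2 and 29.7 (0.04 ± 0.21, adjusted p = 0.941). Usp18 was higher in adult classical monocytes (11.6, 15.7, 34.6 and 33.6) and cDC1 (4.98, 7.74, 13.8 and 13.6). It was also higher in adult mature DC, at 33, 32.9, 45.5 and 47.9 (adjusted p = 0.0463). Herc6, which encodes the mouse ligase for ISG15, passed in cDC1 only, at 6.5, 8.43, 13.4 and 14.8 CPM, out of 6 classes that tested it.

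Among the cytosolic antiviral effectors, 6 of the 8 in the matrix were higher in adult classical monocytes and 4 of 6 tested in adult neutrophils. Rsad2, which encodes viperin, was at 6.85, 13.3, 45.9 and 46.5 CPM in classical monocytes (-2.40 ± 0.27, adjusted p = 7.5e-09) and at 22.3, 14.2, 101 and 140 in neutrophils (-2.72 ± 0.25). Ifit1 and Ifit2, which bind viral RNA and hold back its translation, were at 3.16, 10.9, 33.7 and 25 and at 1.05, 12.1, 54.5 and 36.2 in classical monocytes. The neonatal pools differed among themselves there, with 2 and 20 Ifit2 UMIs, and Ifit2 passed at an adjusted p of 0.0222. Ifit3, with 2.11, 18.2, 72.7 and 61.1, did not pass (-2.97 ± 0.65, adjusted p = 0.0606). Oasl1, a 2'-5'-oligoadenylate synthetase-like protein that limits Irf7 translation, was at 2.62, 3.54, 40.4 and 51.5 in neutrophils (-3.75 ± 0.43, adjusted p = 4e-10), from 2 and 4 UMIs in the neonatal pools. Its neighbour Oasl2 was at 38, 33.6, 149 and 169 there (-2.11 ± 0.19).
In cDC1 Oasl2 was at 1.3, 1.37, 14.2 and 23.7 (-3.79 ± 0.38, adjusted p = 3.6e-10), from 6 UMIs in each neonatal pool against 33 and 40. Oas1a, which makes the 2'-5' oligoadenylates that activate RNase L, was at 0.217, 0.911, 4.32 and 4.14 in cDC1, from 5 neonatal and 17 adult UMIs. Samd9l, a restriction factor of poxviruses, went opposite ways, at 75.7, 90.6, 56.7 and 41.4 in nonclassical monocytes (0.65 ± 0.16) and at 101, 114, 139 and 149 in cDC1 (-0.47 ± 0.09). In nonclassical monocytes no other gene of this group passed.

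All 3 membrane effectors were higher in adults in both monocyte classes, cDC1 and cDC2. Ifitm3 was at 3520, 3860, 5660 and 5560 CPM in classical monocytes (-0.79 ± 0.04, adjusted p = 5.9e-20) and at 2840, 2950, 4100 and 3960 in nonclassical monocytes (-0.59 ± 0.04). In cDC2 it was at 422, 501, 1230 and 1340 (-1.63 ± 0.08, adjusted p = 2.9e-10) and in cDC1 at 52, 44.2, 209 and 132 (-1.90 ± 0.31, adjusted p = 0.0402), so the DC differences were larger on the log scale at lower levels. In cDC1 free RNA could account for up to 24.4% of the neonatal and 7.67% of the adult Ifitm3 UMIs, by the share of S100a8 and S100a9 found in that class. Ifitm2 was higher in adults in 6 classes, as in neutrophils at 1380, 1390, 3220 and 3630 (-1.26 ± 0.06, adjusted p = 1.8e-22) and cDC2 at 220, 277, 714 and 897 (-1.85 ± 0.17). It was higher in neonates in basophil or mast cells at 1620, 1390, 755 and 774 (0.91 ± 0.14, adjusted p = 5.8e-05). Bst2, or tetherin, which holds budding virions at the cell surface, was higher in adults in 5 classes, as in classical monocytes at 155, 190, 318 and 327 (-1.09 ± 0.09) and cDC2 at 108, 124, 264 and 164 (-1.05 ± 0.21).
In cDC2 the classical monocyte marker list summed to 1830, 2150, 3610 and 4990 CPM and the C1q macrophage list to 1150, 1960, 1150 and 2550. Among cDC2 without a UMI of C1qa, C1qb, C1qc or Ly6c2, a choice made after seeing the data, 15 of 31 tested members were higher in adults, against 10.2% of genes in that fit, and 2 in neonates, against 6.82%.

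The GTPases of the IRG and GBP families, which attack the vacuoles of intracellular pathogens and are classic targets of type II interferon, split by gene. Ifi47 was at 25.8, 36.3, 106 and 87.8 CPM in classical monocytes (-1.84 ± 0.18, adjusted p = 1.5e-10). Irgm1 and Igtp were higher in adults in both monocyte classes and neutrophils, as Irgm1 at 14.5, 18.6, 27.8 and 28.7 in nonclassical monocytes. Igtp, whose annotation overlaps Irgm2 on the same strand, was higher in neonatal T cells at 78.3, 103, 10.9 and 23.7 (2.17 ± 0.51, adjusted p = 0.0313), from 12 and 20 UMIs against 2 and 6. Gbp7, whose reads may be shared with its close copy Gbp3, was higher in neonates in nonclassical monocytes at 30.2, 22.5, 7.49 and 7.43 (1.69 ± 0.35, adjusted p = 6.1e-05). It was likewise higher in neonates in cDC2 at 33, 40.5, 12 and 19.6 (1.06 ± 0.28) and in NK cells at 191, 177, 89.9 and 99 (0.94 ± 0.23). In neutrophils Gbp7 was higher in adults at 17, 25.7, 50.5 and 49.2 (-1.12 ± 0.27), and Gbp2 at 6.56, 7.97, 25.3 and 45.8 (-2.18 ± 0.39).

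Of the 12 other interferon-induced genes, 9 of 11 tested were higher in adult classical monocytes, 6 of 10 in adult cDC1, 5 of 10 in adult cDC2, 5 of 8 in adult neutrophils and 2 of 11 in adult nonclassical monocytes. Xaf1, an antagonist of an inhibitor of apoptosis, was higher in adults in 5 classes, as in cDC1 at 6.28, 11.4, 17.3 and 26.6 CPM (-1.32 ± 0.26). Ifi27l2a, a mitochondrial protein, was higher in adult cDC1 at 39.6, 42.6, 126 and 110 (-1.58 ± 0.11, adjusted p = 1.8e-14) and adult neutrophils at 138, 140, 298 and 442, but in neonatal T cells at 770, 791, 399 and 312 (1.03 ± 0.17, adjusted p = 0.0027). A single T cell held up to 18, 48, 23 and 13 of the 118, 153, 73 and 79 Ifi27l2a UMIs of these pools. Slfn5, a nuclear Schlafen protein, was at 206, 245, 424 and 384 in classical monocytes (-1.03 ± 0.09), 31.5, 27.4, 90.9 and 112 in neutrophils (-1.75 ± 0.22) and 127, 123, 126 and 125 in cDC1, where the pools overlapped. Trim30a, a ubiquitin ligase that restrains Toll-like receptor signalling, was at 111, 138, 309 and 327 in neutrophils (-1.29 ± 0.12) and, with the opposite sign, at 98.4, 110, 78.1 and 63.7 in nonclassical monocytes (0.45 ± 0.14).
Phf11b, a zinc finger gene with several close copies, was at 42.4, 36.2, 90.5 and 71.1 in cDC2 (-1.18 ± 0.17), and Rtp4, a chaperone of membrane receptors, at 49.8, 56.6, 100 and 158 in neutrophils (-1.21 ± 0.20). Sp100, a nuclear body protein, was at 193, 183, 269 and 254 in classical monocytes (-0.66 ± 0.09), and Lgals3bp, a secreted galectin ligand, at 12.8, 13.4, 26.8 and 28.4 in cDC1 (-1.11 ± 0.20). Parp14, an ADP-ribosyltransferase, was at 13.1, 27.4, 51.5 and 41.2 in neutrophils (-1.06 ± 0.29). Epsti1 was at 222, 219, 305 and 310 in classical monocytes (-0.66 ± 0.09) and 40.7, 55.2, 78.5 and 74.2 in cDC2 (-0.85 ± 0.17), and in cDC1 at 132, 124, 95.8 and 102 (0.33 ± 0.09, adjusted p = 0.0042). Slfn2, which keeps T cells quiescent, was at 318, 377, 145 and 116 in NK cells (1.43 ± 0.19, adjusted p = 9.6e-06) and at 255, 343, 583 and 571 in basophil or mast cells (-0.99 ± 0.20, adjusted p = 0.00154).

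**Figure D3:**
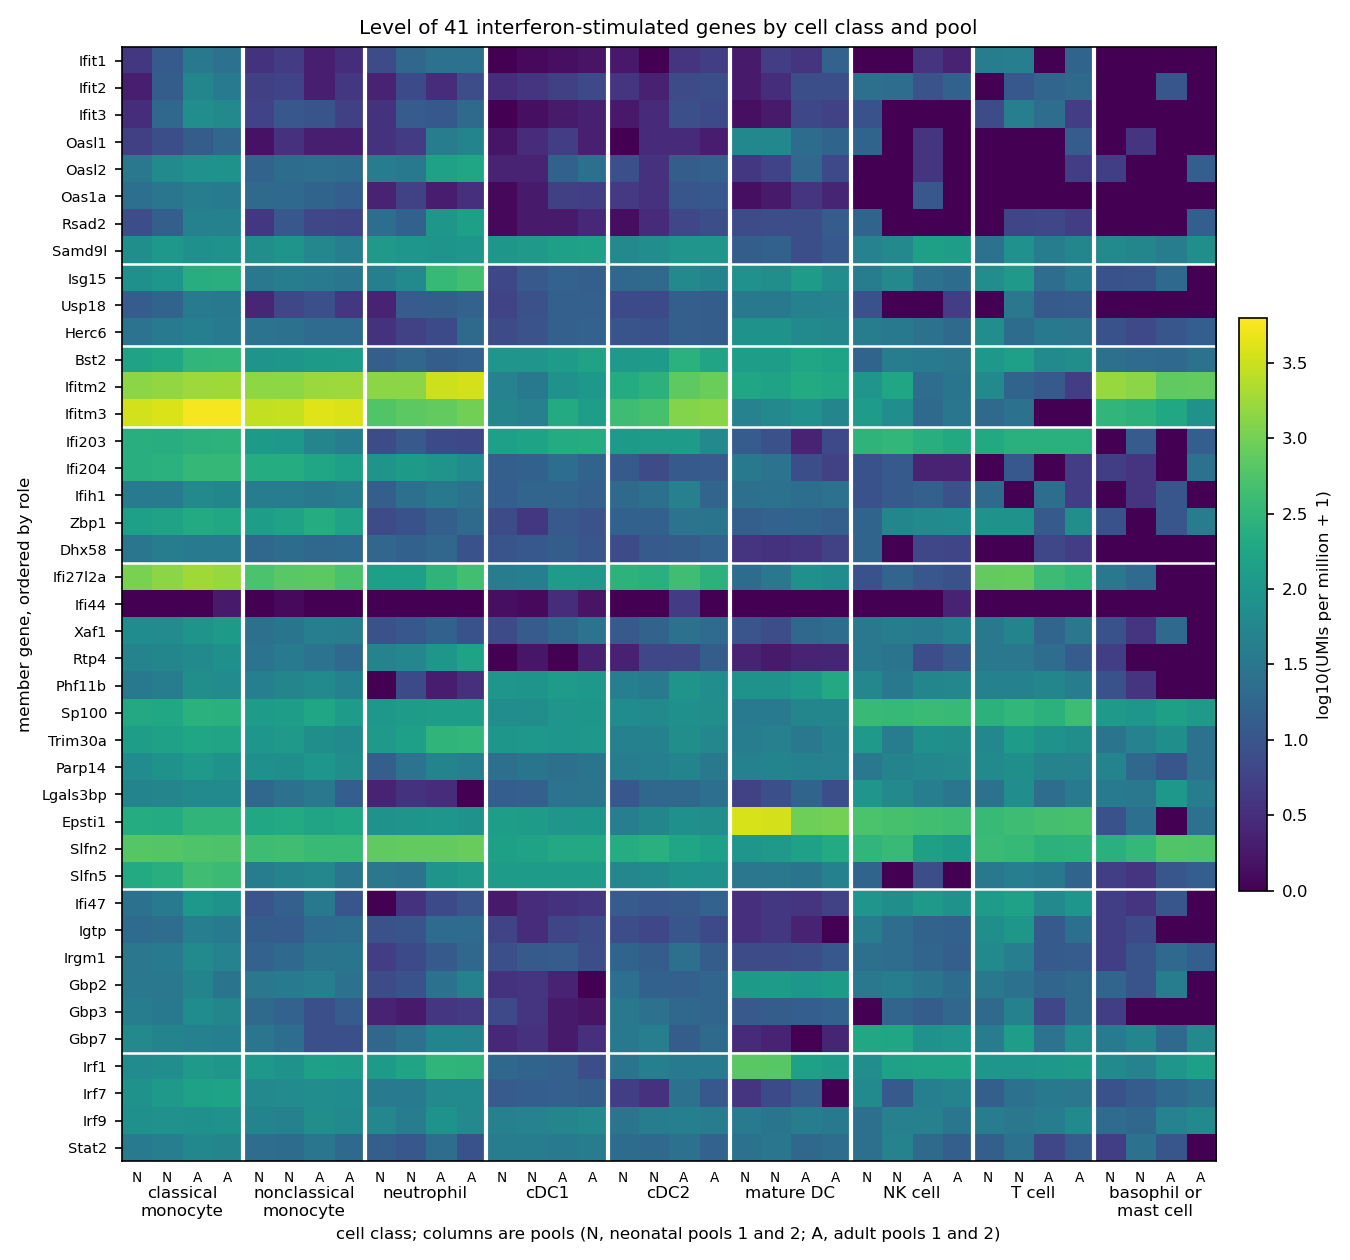
Level of each of the 41 members (rows, ordered by role) in every pool of the 9 tested classes (columns; N for the neonatal pools, A for the adult pools), as log10 of CPM plus 1. Ifitm3 reaches 5660 CPM in adult classical monocytes, Epsti1 3700 CPM in neonatal mature DC, and the highest value of Ifit1, Ifit2 and Ifit3 in these classes is 72.7 CPM.

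Ifitm2 was at 95.5, 172, 22.1 and 28.7 CPM (2.44 ± 0.35) and Ifitm3 at 119, 72.1, 19.4 and 30 (1.86 ± 0.39), both higher in the neonatal pools of NK cells. Free RNA could account for up to 9.88% of the neonatal and 45.7% of the adult UMIs of Ifitm2 in NK cells, and for up to 26.8% and 73.7% of those of Ifitm3. Of the 27 UMIs of both genes together in neonatal pool 1, 19 came from 1 cell, and 21 of 44 did so in neonatal pool 2. With the cell of each pool that had the most such UMIs left out, a choice made after seeing the data, Ifitm2 had too few UMIs to be tested, while Ifitm3 kept its call at 1.82 (adjusted p = 0.00897). In that fit 3 of 26 tested members, Gbp7, Ifitm3 and Slfn2, were higher in neonates (4.93% of genes) and 1, Samd9l, in adults (4.5%). Over all NK cells Samd9l was at 47.7, 61, 142 and 133 CPM (-1.31 ± 0.30, adjusted p = 0.00492), higher in adults.

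Mature DC, the migratory state marked by Ccr7 and Fscn1, had 4 of 30 tested members higher in neonates over the whole class. Epsti1 had the most UMIs among them, and their share lay near the 14.1% of all genes tested. Epsti1 was at 3700, 3650, 919 and 999 CPM (1.83 ± 0.09, adjusted p = 1.2e-13) and Irf1 at 672, 657, 149 and 126 (2.16 ± 0.12, adjusted p = 1.5e-12). Oasl1 was at 58.7, 57.4, 21.3 and 16 (1.52 ± 0.26) and Ifi204 at 33, 26.7, 7.11 and 4.36 (2.25 ± 0.42, from 5 and 3 adult UMIs). The 9 members higher in adults included Ifi27l2a at 20.8, 30.7, 79.7 and 69.7 (-1.64 ± 0.23), Phf11b at 89.8, 89.4, 112 and 196 (-0.89 ± 0.18), Slfn2 at 97, 108, 149 and 213 (-0.93 ± 0.15), Xaf1 at 9.03, 7.02, 18.5 and 21.8 and Bst2 at 134, 131, 169 and 161.
The ages differed in which cluster held their cells. Cluster 6 held 419 and 390 neonatal but 6 and 9 adult cells, and cluster 11 held 91, 117, 106 and 95. In cluster 6 Epsti1 was at 4530, 4770, 3720 and 4860 CPM and in cluster 11 at 754, 682, 790 and 718, so that the ages overlapped within each cluster and the clusters did not overlap. Irf1 was at 842, 903, 388 and 428 in cluster 6, from 12 and 20 adult UMIs, and at 125, 84.8, 138 and 104 in cluster 11. Oasl1 was at 75.3, 78.9, 0 and 0 in cluster 6, where the adult pools held 30955 and 46749 UMIs in all, and at 5.95, 7.71, 22.3 and 17.1 in cluster 11. Ifi204 was at 39.7, 35.1, 0 and 0 in cluster 6. In cluster 11 it was at 11.9, 7.71, 7.44 and 4.67, from 6, 5, 5 and 3 UMIs, so it kept the neonatal direction in both. Tested within cluster 11 alone, Epsti1 changed by -0.10 (adjusted p = 0.687), Irf1 by -0.26 (adjusted p = 0.594) and Oasl1 by -1.51 (adjusted p = 0.114). Slfn2 (0.25) and Ifitm2 (0.33) also had the opposite sign there, and Ifi27l2a (-0.38), Phf11b (-0.65), Xaf1 (-1.12) and Bst2 (-0.33) kept theirs without passing. Of 23 members tested in cluster 11, Gbp2 was higher in neonates, against 2.35% of genes in that fit, and Usp18 in adults, against 4.18%. Summed members per 10000 UMIs in cluster 11 were 24.5, 22.5, 24.9 and 24.4. Cluster 6 was led by Gclc, Synpo2, Bcl2l14 and Tnfrsf4 and cluster 11 by Ccl22, Apol7c, Fabp5 and Aldh1a2.

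**Figure D4:**
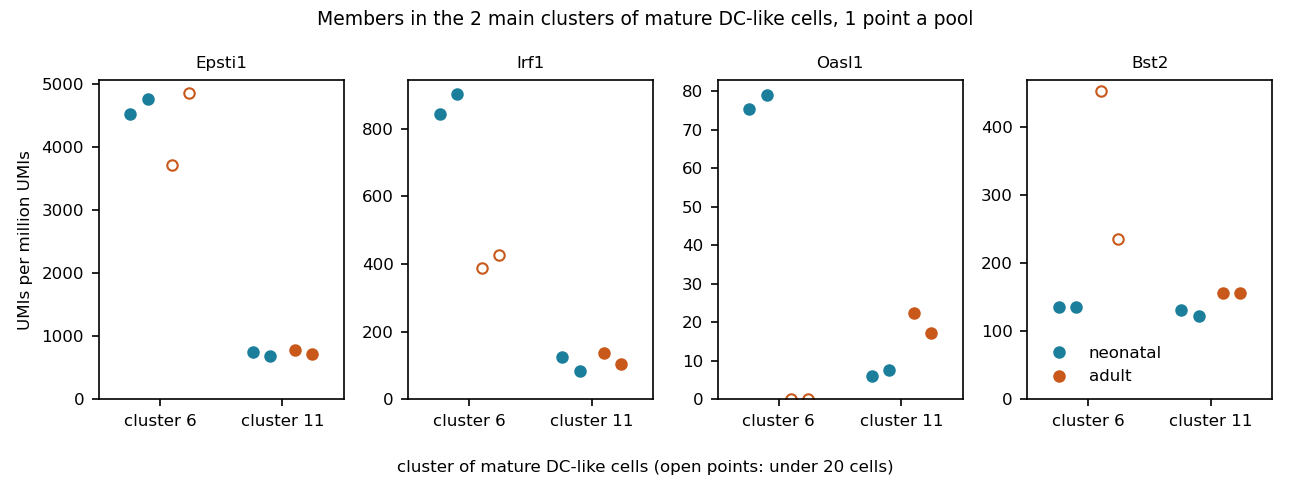
CPM (vertical axes, linear from 0) of Epsti1, Irf1, Oasl1 and Bst2 in clusters 6 and 11 of mature DC, 1 point a pool, blue for neonatal and orange for adult, open where a pool had under 20 cells. Epsti1 separates the clusters (3720 to 4860 against 682 to 790) and not the ages within them.

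The other classes whose ages lay in different clusters, cDC1 apart, allowed less of this check. In cDC1, cluster 1 held 673, 628, 41 and 36 cells, and within it 6 of 28 tested members were higher in adults, against 2.82% of genes in that fit, and 0 in neonates, against 1.75%. There Epsti1 (-0.42, adjusted p = 0.157), Irf9 (0.47, adjusted p = 0.575) and Slfn2 (0.28, adjusted p = 0.523) had the opposite sign of the whole class. Ifitm3 in that cluster was at 53.7, 44.3, 330 and 151 CPM, and summed members at 13.9, 14.3, 20 and 22.3 per 10000 UMIs. Cluster 10 of cDC1, with 29, 24, 262 and 188 cells, was not tested apart. Its summed members were 13.4, 14.2, 19.7 and 19.2 per 10000 UMIs. Ifitm3 was at 14.8, 41.9, 191 and 129 CPM there and Epsti1 at 73.9, 77.8, 85.3 and 91.3. Irf1 went the other way there, at 39.4, 18, 8.43 and 4.8, from 8 and 3 neonatal UMIs. Of adult classical monocytes, 6 and 11 cells lay in the neonatal cluster 5, with 2 Isg15 UMIs in each pool (61 and 48.3 CPM, against 79 and 99.2 in the neonatal cells of that cluster) and summed members of 104 and 113 per 10000 UMIs against 92.6 and 103. In adult cluster 12 Isg15 was at 238 and 249. Neonatal neutrophils of cluster 14, in which the neutrophil marker list summed to 303000 and 289000 CPM, had 26.7 and 32.2 summed members per 10000 UMIs, and those of cluster 7, at 122000 and 120000 for the marker list, had 46.9 and 49.6. Adult neutrophils of cluster 3, at 123000 and 131000, had 74 and 84.3, and their Isg15 was at 352 and 440 CPM against 48 and 70.2 in cluster 7. Neonatal nonclassical monocytes of cluster 0 had Isg15 at 16.7 and 20.6 CPM and 61.7 and 64.5 summed members per 10000 UMIs. Those of cluster 2 had 46 and 58 CPM and 77.8 and 84.6 summed members. The classical monocyte marker list summed to 9580 and 9730 CPM in cluster 0 and to 16100 and 16600 in cluster 2. How far cluster and age each account for these differences was not tested.

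Cells with many members at once were more frequent in adult classical monocytes and neutrophils. With every cell thinned to 1500 UMIs, classical monocytes had on average 6.28 and 6.84 different members with a UMI in neonatal pools 1 and 2 and 8.11 and 7.70 in adult pools 1 and 2. Before thinning, Isg15 UMIs were found in 21.2%, 19.7%, 40.7% and 41.4% of these cells, and after thinning in 8.31%, 9.43%, 19.1% and 23.8%. Neutrophils had 3.46 and 3.56 against 4.83 and 5.09, over the 202 of 397, 319 of 566, 387 of 580 and 338 of 496 cells that were deep enough. Their share with an Isg15 UMI was 4.28%, 6.89%, 26.2% and 31.7% before and 3.96%, 6.27%, 23.3% and 29.9% after thinning. At least 3 of 11 genes of the ISG15, IFIT, OAS-like and viperin groups were found in 1.39%, 3.77%, 6.38% and 8.11% of thinned classical monocytes and in 1.49%, 0.94%, 6.46% and 9.47% of thinned neutrophils. A single adult classical monocyte held 27 different members after thinning, the most among these classes. The shares and means of this kind carry no test. In nonclassical monocytes the means were 4.96, 5.07, 5.20 and 4.83, with overlapping pools.
The Ifit transcripts sat in few cells. Ifit2 was found in 2 and 13 neonatal and in 14 and 12 adult classical monocytes, with at most 15 UMIs in 1 cell. Mature DC had means of 3.09 and 2.97 different members in neonatal and 2.32 and 2.59 in adult pools, cDC1 1.91 and 1.91 against 2.55 and 2.74, and cDC2 2.42 and 2.44 against 3.54 and 3.32.

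**Figure D5:**
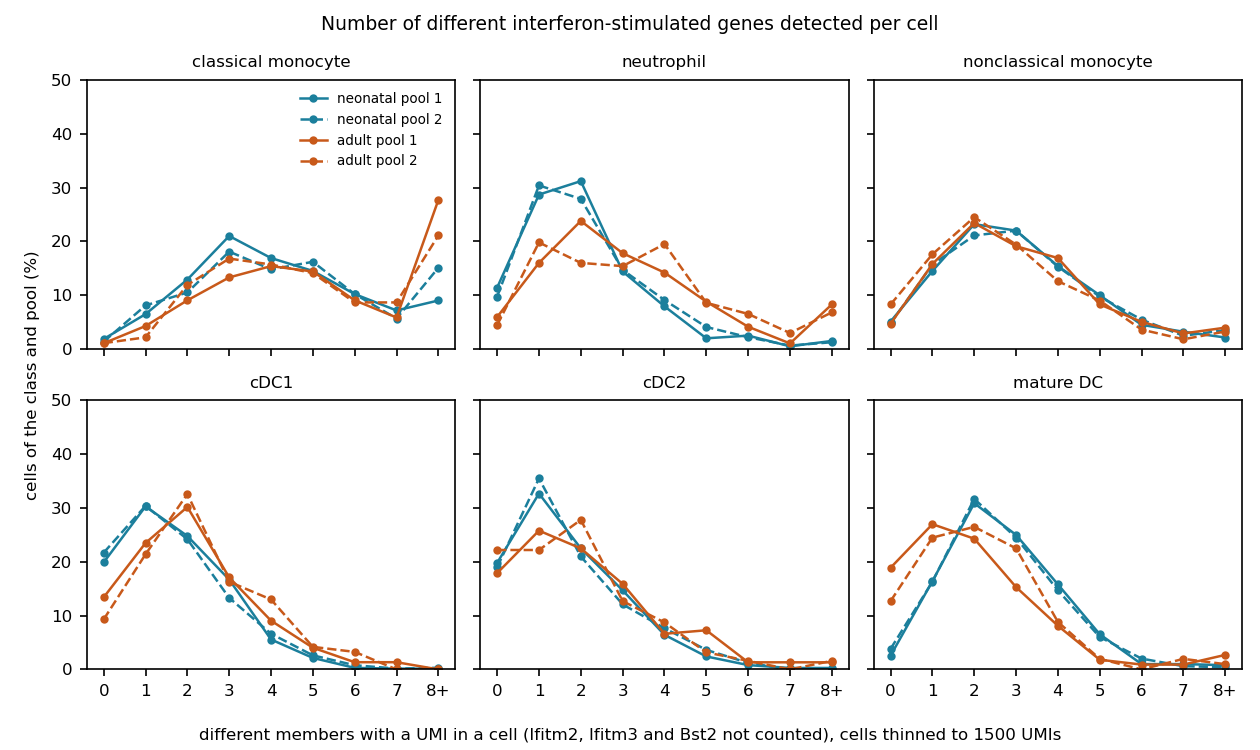
Share of cells (vertical axis, percent of the cells of a class and pool) with each number of different members (horizontal axis, 8 or more joined), Ifitm2, Ifitm3 and Bst2 not counted, after thinning to 1500 UMIs; blue for neonatal and orange for adult pools. Adult classical monocytes and neutrophils have the heavier right-hand tail, while the 4 nonclassical monocyte lines overlap.

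The age effect was also compared between classes, with the class by age interaction over all genes. Nonclassical and classical monocytes differed for 20 of 40 members, against 7.87% of genes, and each of the 20 was relatively lower in neonates in classical monocytes. Leaving out neonatal pool 2 or adult pool 2 brought that count to 13. Between cDC1 and cDC2, 10 of 38 members differed (8.08% of genes), and 6 without neonatal pool 1 or adult pool 1. Epsti1 had a difference of 1.18 and Irf7 of 2.38 between those classes, both relatively lower in neonatal cDC2, whereas Oasl2 (-2.33), Ifi27l2a (-1.06), Slfn2 (-0.92) and Ifi203 (-0.90) were relatively lower in neonatal cDC1. Between cDC1 and mature DC 10 of 34 differed (16.8% of genes), a comparison that the clusters of mature DC bear on, and 6 without neonatal pool 1. The remaining pairs gave 10 of 38 between cDC1 and nonclassical monocytes (13.7%), 11 of 36 between cDC1 and neutrophils (15.7%), or 7 without either neonatal pool, and 6 of 35 between cDC1 and NK cells (5.3%).

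The wider interferon pathway was read from a list of 116 further genes, of which 112 were in the matrix. In classical monocytes 32 of 83 tested were higher in adults (10.1% of all genes) and 2 in neonates (5.86%), and in neutrophils 25 of 57 (15.9%) and 3 (16.3%). In nonclassical monocytes the counts, adult first, were 23 and 9 of 83 (9.81% and 9.22% of all genes), in cDC1 20 and 12 of 75 (14.4% and 11.3%) and in cDC2 13 and 3 of 70 (9.06% and 5.63%). In mature DC they were 10 and 18 of 66 (15.3% and 14.1%), in NK cells 3 and 4 of 55 (4.32% and 4.9%), in T cells 0 and 1 of 35 (1.74% and 0.455%) and in basophil or mast cells 1 and 1 of 15 (4.71% and 3.48%). The neonatal share of nonclassical monocytes and the adult share of mature DC lay near those of all genes. Interferon ligand genes had too few UMIs to test except 1 each in NK and T cells. Among receptors, Ifnlr1, the type III receptor chain, was at 3.03, 4.10, 11.2 and 21.3 CPM in cDC1 (-2.16 ± 0.33, adjusted p = 2.7e-06), and its partner chain Il10rb at 30.3, 42.6, 70.8 and 63.9 (-0.94 ± 0.14). The feedback inhibitor Socs3 was at 13, 11.8, 55.7 and 76.9 in cDC1 (-2.42 ± 0.17, adjusted p = 2.3e-14), at 210, 168, 262 and 272 in cDC2 (-0.64 ± 0.11) and at 13.1, 16.7, 78.2 and 49.4 in mature DC (-2.20 ± 0.26).
Mndal, a PYHIN gene beside Ifi203, was at 111, 102, 262 and 234 in cDC1 (-1.26 ± 0.08), whereas in cDC2 it was higher in neonates (0.58 ± 0.14, adjusted p = 0.00542). Irf8, the lineage factor of cDC1, was at 2320, 2400, 1630 and 1550 in cDC1 (0.52 ± 0.04), and Irf4, a factor of cDC2, at 1.52, 1.82, 9.07 and 17.2 (-2.93 ± 0.41). Tap1 and Psmb9, of peptide loading for MHC class I, were higher in neonatal cDC1, Psmb9 at 687, 679, 534 and 505 (0.35 ± 0.05), and Psmb9 was higher in adult cDC2 at 135, 121, 189 and 158 (-0.58 ± 0.12). In mature DC as a whole Irf8 (1170, 958, 317 and 250), Gbp4 (187, 155, 37 and 34.8), Tap1 (473, 443, 211 and 229) and Uba7, the activating enzyme for ISG15 (97.5, 97.3, 39.8 and 34.8), were higher in neonates, and Ms4a4c and Ifitm1 in adults.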

How the data were processed

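Single-cell 3' RNA-seq was analysed from 2 pools of neonatal and 2 of adult lung cells. The deposited values are raw UMI counts per gene and cell, made by the authors with Cell Ranger 6.1.2 on mm10, with Seurat 4.2.0 also named, per the submitters' processing notes. Cells were assigned to pools by barcode suffix as the series' design text gives it, and the 2 hashtag features of the table were used only to drop mixed cells.

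Of 14710 barcodes, 12721 had at least 500 genes and 1000 UMIs, at most 10% mitochondrial UMIs, at most 20% of hashtag UMIs from the other hashtag and no doublet call (109, 95, 25 and 14 doublets left out). Leiden clustering (scanpy 1.11.5, leidenalg 0.10.2, resolution 1, 30 principal components, 15 neighbours, 2759 variable genes without the members and pathway genes) gave 24 clusters, named from marker lists. Class names rebuilt this way may differ from the study's. Per pool and class, UMIs were summed and tested with edgeR 4.0.16 (filterByExpr, TMM, robust quasi-likelihood, Benjamini-Hochberg over all genes tested, threshold 0.05) in R 4.3.3, with DESeq2 1.42.0 as an alternative. The interaction fit had each of the 4 pools as a block, since both classes come from the same pools, and did not pair neonatal with adult pools. The procedure was tested on simulated data with 200 changed genes. Fold changes use TMM scaling while CPM use total UMIs. Intervals are exact 95% Poisson intervals and, like the limit of 3 counts behind a 0, cover counting error only. An exact permutation test of 2 against 2 pools cannot reach 0.05, and none was run. The adult pools had fewer cells and UMIs, so adult values of small classes are less precise.

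All members could be named, with pool values for those called in 2 or more classes and for the 3 with the most UMIs in a class, and of the pathway list 12 genes by smallest p in cDC1, cDC2 or mature DC. Some further members are given with pool values to complete a role group and were picked after their values were seen. The members, gene lists and tests were chosen with earlier results of these data known. Alternatives covered scaling, test, filters, leaving out each pool, the replicate block, doublets, clustering, thinning, cells with S100a8 or S100a9 UMIs and single clusters. Reads of close copies (Ifi203 and Ifi204 with Mndal, Gbp3 with Gbp7, the Oas, Ifit, Phf11 and Slfn families) and same-strand overlaps (Ifi203 with Mndal, Ifi47 with Olfr56, Irf9 with Rnf31, Igtp with Irgm2) cannot be fully told apart.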

Additional observations from a re-analysis of the deposited data

Results flagged for a closer look

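The members below had an age effect that differed between 2 cell classes at an adjusted p under 0.05 in the edgeR interaction test, 67 results over 30 members and 6 pairs of classes. Each value is the log2 neonatal over adult change in the first class minus that in the second, over 4 pools, so a positive value means a change relatively higher in neonates in the first class. For every pair the shares of all genes that differed are given in the report, the pairs share the cDC1 pools in 5 of 6 cases, and the cluster a cell lies in moves with age in most of these classes.

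Between cDC1 and cDC2, 6 differences were positive (Irf7 2.38, Epsti1 1.18, Phf11b 0.86, Trim30a 0.66, Slfn5 0.63 and Ifitm2 0.60) and 4 were negative (Oasl2 -2.33, Ifi27l2a -1.06, Slfn2 -0.92 and Ifi203 -0.90). Between cDC1 and mature DC, 1 difference was positive (Gbp3 2.70) and 9 were negative (Ifi204 -2.87, Oasl1 -2.58, Oasl2 -2.21, Ifi203 -1.99, Irf1 -1.60, Epsti1 -1.56, Ifitm3 -1.50, Herc6 -1.43 and Ifitm2 -0.92). Between cDC1 and nonclassical monocytes, 1 difference was positive (Irf1 1.26) and 9 were negative (Oasl2 -3.41, Oas1a -3.15, Ifi203 -1.78, Ifi27l2a -1.39, Herc6 -1.18, Samd9l -1.09, Ifi204 -0.93, Ifitm2 -0.84 and Slfn2 -0.46). Between nonclassical monocytes and classical monocytes, 20 differences were positive (Ifit2 3.93, Ifit1 3.08, Ifit3 2.98, Rsad2 2.54, Gbp3 1.69, Isg15 1.63, Ifi203 1.62, Gbp7 1.54, Rtp4 1.00, Ifi204 0.99, Slfn5 0.95, Trim30a 0.91, Ifih1 0.86, Phf11b 0.85, Epsti1 0.75, Samd9l 0.70, Bst2 0.67, Irf7 0.54, Ifi27l2a 0.52 and Ifitm3 0.20). Between cDC1 and neutrophils, 7 differences were positive (Gbp2 3.99, Oasl1 2.96, Isg15 2.16, Slfn5 1.81, Irf1 1.75, Trim30a 1.39 and Parp14 1.23) and 4 were negative (Oasl2 -1.55, Ifi204 -0.91, Samd9l -0.51 and Slfn2 -0.30). Between cDC1 and NK cells, 6 differences were negative (Ifitm3 -3.71, Ifitm2 -3.70, Lgals3bp -2.13, Isg15 -1.83, Slfn2 -1.80 and Ifi203 -1.01).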

How the results depend on the processing

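Of 1897 alternative values of 123 gene and class results, 1590 kept their direction and side of the threshold, 299 kept the direction but not the call and 8 turned. Counts of called members and summed values were recomputed 368 times, and 287 stayed within the limits set (1.5 times for counts, the pools' spread for sums). The alternatives restricted to cDC2 without C1q or Ly6c2 UMIs, NK cells without the top cell, and sums without Epsti1 were chosen after seeing the data. The causes of the changes below were not tested, except that single clusters, thinning and single pools leave fewer cells or UMIs. Unless a share is printed with it, an alternative count here or above is not set against all genes called in that setting. Such a count does not show whether members were called more often than other genes.

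With the DESeq2 Wald test the members higher in adults numbered 12 in cDC1, 6 in cDC2, 3 in mature DC, 12 in neutrophils, 4 in nonclassical monocytes and 0 in NK cells, and those higher in neonates 1 in T cells, 0 in cDC1, cDC2 and neutrophils and 2 in nonclassical monocytes. After thinning to 1500 UMIs the adult counts were 8 in cDC1, 7 in cDC2, 18 in classical monocytes, 2 in mature DC, 12 in neutrophils and 0 in NK cells, and the neonatal counts 0 in T cells, cDC1 and cDC2. In cells without S100a8 or S100a9 UMIs the adult counts were 11 in cDC1, 8 in cDC2 and 5 in mature DC, and the neonatal count in cDC2 was 0. In 1 cluster of a class, cDC1 had 6 adult and 0 neonatal calls and mature DC 1 of each, and there Epsti1 (-0.42), Irf9 (0.47) and Slfn2 (0.28) turned in cDC1 and Epsti1 (-0.10), Ifitm2 (0.33), Irf1 (-0.26), Oasl1 (-1.51) and Slfn2 (0.25) in mature DC. Leiden resolution 2 gave 7 adult calls in cDC2, and members among the clustering genes gave 1 in T cells. The neonatal count in basophil or mast cells was 2 with total UMIs, no low-count filter or a filter of 10 CPM. In neutrophils it was 0 with DESeq2 size factors, total UMIs, no filter or doublets kept, in cDC1 2 with no filter, and in classical monocytes 1 with total UMIs.

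Leaving out each pool in turn gave adult counts of 0 to 1 in NK cells, 0 to 0 in T cells, 1 to 1 in basophil or mast cells, 14 to 18 in cDC1, 7 to 14 in cDC2, 27 to 33 in classical monocytes, 3 to 8 in mature DC, 15 to 16 in neutrophils and 4 to 10 in nonclassical monocytes. The neonatal counts were 2 to 5 in NK cells, 1 to 3 in T cells, 1 to 2 in basophil or mast cells, 0 to 2 in cDC1 and cDC2, 0 to 0 in classical monocytes, 4 to 4 in mature DC, 0 to 1 in neutrophils and 2 to 5 in nonclassical monocytes. The members differing between classes numbered 6 to 9 for cDC1 and cDC2 and for cDC1 and mature DC, 9 to 11 for cDC1 and nonclassical monocytes, 13 to 15 for the monocyte classes, 7 to 9 for cDC1 and neutrophils and 4 to 6 for cDC1 and NK cells. A fit with 1 pool in an age assumes that pool to vary like the others.

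With the pool number as a replicate block the neonatal count was 0 in T cells and 2 in basophil or mast cells, and no other count moved by over 1.5 times. Deviations of pools with the same number correlated between -0.124 (neutrophils) and 0.046 (mature DC), so the numbers were not taken as pairs. Summed members without Ifitm2, Ifitm3 and Bst2 changed by 0.25 in NK cells, -0.64 in basophil or mast cells, -0.35 in cDC1, -0.23 in cDC2, 1.24 in mature DC and 0.07 in nonclassical monocytes, and without Epsti1 by -0.54 in cDC1 and 0.21 in mature DC. The sum in cDC1 changed by -0.56 after thinning and -0.39 without S100a8 or S100a9, and in T cells by 0.61 without them. The mean number of different members at 1000 UMIs changed by 0.51 in mature DC and -0.06 in nonclassical monocytes. Without TMM the median of all genes shifted to 0.19 in classical monocytes, 0.15 in cDC2, 0.14 in T cells and 0.11 in nonclassical monocytes. Neutrophils could not be tested under the stricter cell filter, NK cells under both other clusterings, and basophil or mast cells without S100a8 or S100a9.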
